A study of Mus musculus with 2 samples.

Results

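Capillary endothelial cells of the atherosclerotic mouse aorta were examined across all genes, in 2 single-cell RNA-seq libraries. They were chosen by the genes they carried. A cell was taken as endothelial when it had a UMI (unique molecular identifier, which marks 1 captured RNA molecule) of at least 3 of 8 pan-endothelial genes, which were Egfl7, Esam, Ecscr, Cdh5, Cldn5, Ptprb, Tie1 and Cd93. It was placed in the capillary class when it had at least 2 of the 6 genes Rbp7, Gpihbp1, Cd300lg, Btnl9, Car4 and Cd36, more of these than of 6 arterial genes and more than of 6 venous genes, and at most 1 lymphatic gene. The class held 2323 of the 68463 cells kept, 1034 from the WT library and 1289 from the EC-iCD45KO library. It was the largest of 3 endothelial classes built in the same way, beside 565 arterial cells (330 and 235) and 657 venous cells (260 and 397).

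Capillary endothelium of heart, muscle and fat takes fatty acids from blood lipoproteins. The protein Gpihbp1 carries lipoprotein lipase from the tissue to the luminal face of the capillary, the lipase frees fatty acids from triglyceride-rich particles, and the scavenger receptor Cd36 and the binding proteins Fabp4 and Fabp5 move them across the cell. The nuclear receptor Pparg and the factors Meox2 and Tcf15 are known to drive this programme. In an aorta preparation such cells can come from the vasa vasorum of the outer wall or from fat and other tissue that stays attached, and these sources cannot be told apart here.

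The WT library came from ApoE-/- C57BL/6 mice fed a Western diet, which are hypercholesterolaemic and form plaques. The EC-iCD45KO library came from mice with the same ApoE deficiency, background and diet and with a tamoxifen-inducible deletion, in endothelial cells, of CD45, the tyrosine phosphatase of leukocytes encoded by Ptprc. The Cre driver, the age, the number and pooling of animals, and whether WT mice received tamoxifen are not given in the sources used here. The stated interest of the series is endothelial-to-mesenchymal transition, the gain of mesenchymal traits such as contractile and matrix proteins by endothelium, and the part that endothelial CD45 has in it. With 1 library per group there was no replicate check and no test, so any difference between the preparations was also a difference between groups. Every interval is at 95% and covers counting error only, and all are exact except those of differences between shares, which are Newcombe score intervals.

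The class carried 3416675 UMIs in WT and 5189192 in EC-iCD45KO, of library totals of 92058043 and 88967918. Median depth per cell was 2400 and 2590 UMIs, with 1384 and 1444 genes, and the mitochondrial share was 1.55% and 2.22%. Levels below are CPM, the UMIs of a gene summed over the class in a library and scaled to 1000000 UMIs of that class. The libraries shared 340 barcodes by sequence. Of these, 11 marked class cells in WT, 21 marked class cells in EC-iCD45KO and 2 did so in both.

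Values of the genes that chose the cells describe the choice and were not compared further. Rbp7 stood at 521 CPM in WT and 530 in EC-iCD45KO, Gpihbp1 at 1347 and 1479, Cd300lg at 451 and 387, Btnl9 at 256 and 266, Car4 at 280 and 208, and Cd36 at 1962 and 1774. In WT, 205, 284, 241, 202 and 102 cells carried 2, 3, 4, 5 and 6 of these genes. The corresponding numbers in EC-iCD45KO were 357, 326, 238, 226 and 142. Cells with only 2 of them, at the edge of the class, made up 19.8% of it in WT and 27.7% in EC-iCD45KO. The number of genes seen also followed depth, since median UMIs were 1841 and 1849 with 2 genes against 4057 and 4221 with 6. Just inside and just outside the edge, among endothelial cells with no arterial or venous gene, 121 WT cells with 2 capillary genes had Fabp4 at 8289 CPM and 125 with 1 had it at 4270. In EC-iCD45KO the levels were 7032 in 216 cells and 3854 in 180 cells.

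The name of the class was checked on 12 other capillary genes that had no part in the choice. Of these, 9 were at least 2-fold higher than in arterial cells of both libraries, 1 was at least 2-fold lower, and 5 were at least 2-fold higher than in arterial and venous cells of both. The minimum for testing was a mean of 20 CPM over the capillary levels of the 2 libraries, so genes low in capillary and high in arterial or venous cells were mostly not tested, and the counts against those classes are descriptions that the minimum shapes. Over all 6978 genes tested, 5.10% were 2-fold higher than in arterial cells of both libraries and 2.14% lower. Against arterial and venous cells of both libraries, 125 of the 6978 were 2-fold higher and 19 lower. Against venous cells, 6 of the 12 were 2-fold higher in both and 1 was 2-fold lower, beside 3.11% of all genes higher and 1.0% lower. Rgcc, a cell cycle regulator of endothelial cells, stood at 999.5 CPM in WT and 897 in EC-iCD45KO, against 46.2 and 38.8 in arterial cells and 97.1 and 125 in venous cells. Kdr, the main VEGF receptor, had 342 and 417 CPM against 20.2 and 41.5 in arterial and 151 and 161 in venous cells. Timp4, an inhibitor of matrix metalloproteinases, had 283 and 272 CPM against 12.3 and 15.4 in arterial and 21.7 and 9.58 in venous cells. The gene lower than in arterial cells was Mgp, matrix Gla protein, with 1922 and 1778 CPM against 15494 and 13943. All 4 genes separated the capillary from the arterial cells in the same direction in each library.

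The targeted gene checks the labels. Ptprc (ENSMUSG00000026395, GRCm38 chr1:138062861-138175708, minus strand) had 895 UMIs in 397 WT capillary cells, or 262 CPM (245 to 280), and 486 UMIs in 235 EC-iCD45KO cells, or 93.7 CPM (85.5 to 102). The log2 ratio of EC-iCD45KO over WT was -1.48 (-1.65 to -1.32). It was also lower in cells outside the endothelial gate, with 581 and 317 CPM (-0.87). After each cell was thinned to 1000 UMIs, 19.9% of class cells had a Ptprc UMI in WT and 9.52% in EC-iCD45KO, against 44.9% and 24.6% of 2000 non-endothelial cells of each library. Before thinning, 39.9% and 19.0% of the same class cells had one. The share of class cells with leukocyte markers differed as well. Summed B cell, plasma cell and T and NK cell markers were lower in EC-iCD45KO, whereas macrophage and neutrophil markers were higher, and the part of their RNA in the class value was not tested. In 650 WT cells (62.9% of the class) and 467 EC-iCD45KO cells (36.2%) that had at least 1 UMI of 14 leukocyte markers, Ptprc stood at 346 and 147 CPM. In the remaining 384 WT and 822 EC-iCD45KO cells, a split chosen after the data were seen, it stood at 45.9 CPM (33.3 to 61.6) and 48.8 CPM (41.0 to 57.7), a log2 ratio of 0.09 (-0.41 to 0.61). Capillary cells free of leukocyte markers thus had nearly the same Ptprc level in both libraries, with an interval that spans 0. Counts over a whole gene do not show whether the deleted part is still transcribed, since the deleted exons are not given in the sources used here.

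Many genes of fatty acid handling that had no part in the choice stood above their arterial level. Of 22 genes for lipid binding, uptake, storage and lipolysis, 15 passed the 20 CPM minimum, and 9 of these were at least 2-fold higher than in arterial cells of both libraries, beside 5.10% of all genes tested. Their median log2 ratio over arterial cells was 1.82 in WT and 1.93 in EC-iCD45KO, beside 0.12 and 0.09 over all genes tested. Because the minimum was on the capillary level, these medians leave out genes low in the class, and with no minimum they were 1.32 and 0.94. Over venous cells the medians were 0.98 and 0.77, beside 0.07 and 0.09, and 4 genes were 2-fold higher there in both libraries, beside 3.11% of all genes. These genes were put on the list for their known link to the markers that chose the cells, so the excess is a description of the class. The 7 genes under the minimum included the fatty acid transporters Slc27a1, Slc27a3 and Slc27a4, the endothelial lipase Lipg and the lipid droplet protein Cidec, which leaves the transporters outside the comparison.

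Among the binding proteins, Fabp4 (GRCm38 chr3:10204088-10208576, minus strand), which carries fatty acids in the cytosol, had 18295 CPM in WT and 16529 in EC-iCD45KO. Arterial cells had 1233 and 1112 and venous cells 6951 and 5909, so the capillary level was 14.8-fold and 14.9-fold the arterial and 2.63-fold and 2.80-fold the venous one. Fabp5, its relative, had 686 and 985 CPM against 195 and 221 in arterial and 441 and 470 in venous cells. The order of the 3 classes was the same for both genes in both libraries. Scarb1, the HDL receptor, had 256 and 258 CPM against 20.2 and 24.8 in arterial cells and 128 and 151 in venous cells. Aqp7, a channel for glycerol, had 122 and 121 CPM against 5.05 and 3.35, and 10.4 and 6.92. These 4 genes were highest in the capillary class among the 3 endothelial classes of each library.

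Lpl and Mgll followed the same order. Lpl, lipoprotein lipase itself (GRCm38 chr8:68880491-68907448, plus strand), had 632 CPM in WT and 386 in EC-iCD45KO, against 13.0 and 20.7 in arterial cells, 40.8 and 24.0 in venous cells and 71.5 and 101 in non-endothelial cells. Mgll, which splits monoglycerides, had 1474 and 1639 CPM against 158 and 163 in arterial and 296 and 209 in venous cells. Angptl4, an inhibitor of the lipase, had 70.0 and 92.1 CPM in the class and 78.1 and 73.5 in venous cells, with a WT log2 ratio of capillary over venous cells of -0.16 (-0.51 to 0.21) and an EC-iCD45KO one of 0.33 (0.05 to 0.61). Lipe and Pnpla2, which release fatty acids from stored triglyceride, had 103 and 88.5, and 87.2 and 74.6 CPM, against 20.2 and 16.7, and 70.7 and 48.9 in arterial cells. Of 12 genes listed as regulators of fatty acid handling, 10 were tested and 5 were 2-fold higher than in arterial cells of both libraries, beside 5.10% of all genes, with medians of 0.81 and 1.23 beside 0.12 and 0.09. Pparg (GRCm38 chr6:115360951-115490399, plus strand) had 417 and 387 CPM against 12.3 and 20.1 in arterial cells, 34.0-fold and 19.3-fold, and 60.7 and 50.6 in venous cells. Tcf15 had 283 and 316 CPM against 15.1 and 18.1, and 37.3 and 28.7. Meox2, the partner of Tcf15, had 107 and 112 CPM and did not separate capillary from venous cells in WT, which had 108 and 88.4. Flt1, the receptor of VEGF-B, had 1038 and 1146 CPM against 317 and 403 in arterial cells, and its co-receptor Nrp1 had 533 and 635 against 224 and 168.

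**Figure D1:**
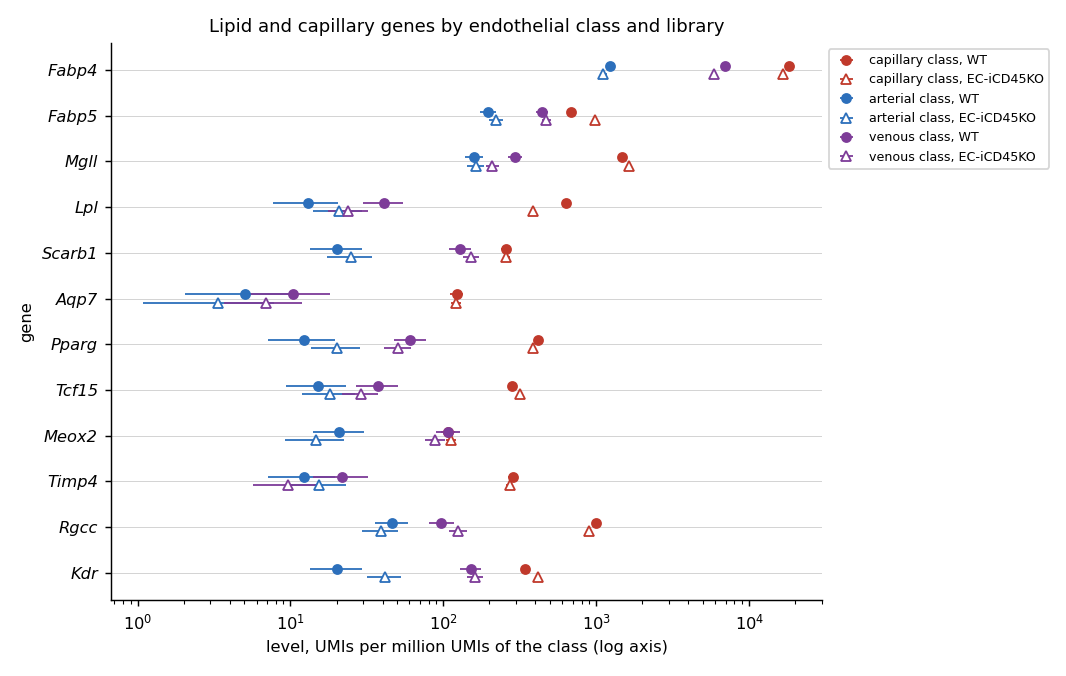
Levels (CPM, log axis) of 12 lipid and capillary genes in the capillary, arterial and venous cells of the WT (circles) and EC-iCD45KO (triangles) libraries, with exact 95% Poisson intervals. The capillary points lie above the arterial and venous points of the same library for the genes shown other than Meox2, and Lpl is at 632 in WT and 386 in EC-iCD45KO.

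Genes outside the lists that set the class most apart were found by the smallest of 4 log2 ratios, over arterial and over venous cells in both libraries. Over both classes and libraries 125 genes were at least 2-fold higher and 19 at least 2-fold lower, among genes that had passed the minimum on their capillary level. The 15 highest held Lpl, Timp4, Aqp7, Tcf15, Rgcc, Pparg and Mgll of the lists, and Gm12002, Kcna5, Mcf2l, Lnx1, Vwa3a, Ablim3, Mmp13 and Prag1 beside them. Gm12002, a non-coding transcript on chromosome 11, had 116 and 119 CPM against 1.44 and 2.01 in arterial cells (2 and 3 UMIs). Kcna5, a voltage-gated potassium channel, had 52.4 and 54.5 CPM against 1 UMI in the arterial cells of each library. Mmp13, a collagenase, had 113 CPM in WT and 14.8 in EC-iCD45KO, and 98.7% of its WT UMIs lay in 2 cells. Without the 2 cells of each library with most of its UMIs, a setting chosen after the data were seen, its log2 ratio of EC-iCD45KO over WT turned from -2.93 to 2.86 (1.55 to 4.54). The 10 genes lowest against both other classes were Cytl1, Ehd4, Myof, Prkg1, Mgp, Tspan5, Sox4, Cp, Cemip2 and Il6st. Cytl1, a secreted protein, had 93.4 and 41.6 CPM against 2845 and 1853 in arterial and 477 and 191 in venous cells. Sox4, a transcription factor, had 54.4 and 74.2 CPM against 371 and 288, and 134 and 160. Cav1, the coat protein of caveolae, lay on the other side with 926 and 960 CPM against 426 and 598 in arterial and 345 and 347 in venous cells.

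Between the libraries the lipid list was centred near 0. Its median log2 ratio of EC-iCD45KO over WT was 0.02, where the intervals of the middle genes ran from -0.11 to 0.14, and the median over all 6978 genes was also 0.02. None of the 15 genes was 2-fold higher or lower, beside 1.07% of all genes 2-fold higher and 2.16% lower. The intervals of 5 genes lay above 0 and those of 6 below, beside 1372 above and 1207 below among all 6978 genes. For the regulators the median was 0.15, with 5 of 10 intervals above 0 and 2 below. In the 384 WT and 822 EC-iCD45KO cells without leukocyte markers it was -0.078, with 1 interval above 0 and 1 below. For 8 tested genes of fatty acid oxidation the median in the whole class was 0.03 with none 2-fold changed. For 12 other capillary genes it was 0.05.

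Single members of the lipid list differed between the libraries. Lpl had the lowest ratio, at -0.71 (-0.80 to -0.62), and in the 384 and 822 cells without leukocyte markers it stood at 1036 and 491 CPM, a ratio of -1.08 (-1.19 to -0.96). Acsl1, which activates long-chain fatty acids, had 33.4 and 23.1 CPM (-0.53), and Fabp4 was at -0.15 (-0.16 to -0.13). On the other side stood Fabp5 at 0.52 (0.45 to 0.59), Plin2, the coat protein of lipid droplets, with 183 and 281 CPM (0.62), and Lrp1, an endocytic lipoprotein receptor, with 53.0 and 84.4 CPM (0.67). Cells outside the endothelial gate had the same direction for these 3 genes, with Fabp5 at 279 and 713 CPM, Plin2 at 158 and 447 and Lrp1 at 117 and 224, and the part of their RNA in the capillary values was not tested. Among the regulators, Foxo1, a factor that holds endothelial cells in quiescence, had 120 and 90.0 CPM (-0.42), and non-endothelial cells 120 and 43.7. Ppard had 31.6 and 48.2 CPM (0.61). Pparg was at -0.11 (-0.21 to -0.01) and Mgll at 0.15 (0.10 to 0.20). In the leukocyte-marker-free cells the lipid list had a median of -0.14, with Fabp4 at 28386 and 21802 CPM, Pparg at 632 and 525 and Mgll at 2263 and 2137. Fabp5 had 860.2 and 992 CPM there (0.21) and Plin2 177 and 221 (0.32), smaller differences than in the whole class.

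**Figure D2:**
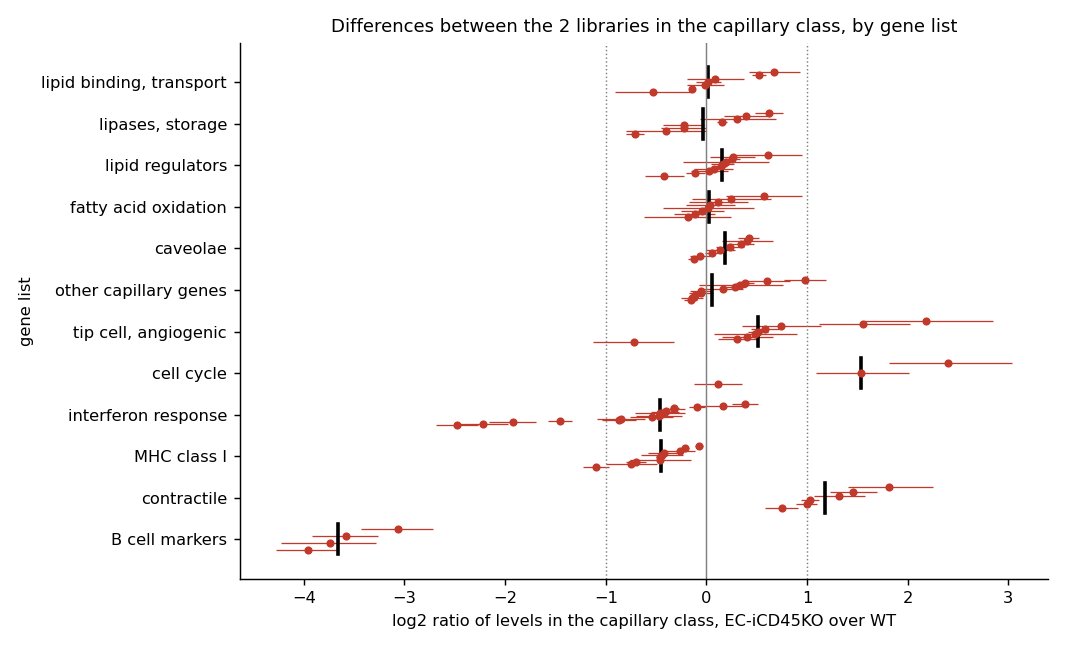
Log2 ratio of the EC-iCD45KO over the WT level in the capillary class, 1 point per tested gene of each list with its exact 95% counting interval, black bars at the list medians and dotted lines at a 2-fold difference. Interferon and MHC class I genes lie mostly to the left of 0 (medians -0.46 and -0.45), contractile genes to the right (1.17 with Cnn1 included), and lipid genes on both sides.

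Interferon response genes were lower in the EC-iCD45KO capillary cells. Interferons act through transcription factors that bind a response element in the promoters of antiviral genes. Of 17 listed genes, 15 had intervals below 0 and 1, Ifi27, above 0, and 4 were 2-fold lower, with a median of -0.46. Among all 6978 genes, 1207 intervals lay below 0, 1372 lay above 0, and 2.16% of genes were 2-fold lower. The median of the same list was -0.24 in arterial, -0.42 in venous and -0.42 in non-endothelial cells, so the direction was not particular to the capillary class. It was -0.66 in the capillary cells without leukocyte markers, where 14 intervals lay below 0, beside 701 of 6837 over all genes in those cells. Irf7 (GRCm38 chr7:141262706-141266481, minus strand), a master regulator of the type I response, had 258 CPM (242 to 276) in WT. In EC-iCD45KO it had 46.4 CPM (40.8 to 52.7), which gives a log2 ratio of -2.48 (-2.69 to -2.27). Its levels were 95.2 and 40.2 CPM in arterial cells, 98.01 and 29.3 in venous cells and 75.6 and 55.9 outside the endothelial gate, and 349 and 48.1 in the leukocyte-marker-free capillary cells. Isg15, a ubiquitin-like modifier, had 488 and 178 CPM (-1.46), Ifit1, a sensor of foreign RNA, 155 and 41.0 (-1.92) and Ifit3 164 and 35.3 (-2.22). Ifi44, outside the list, had 146 and 25.8 CPM (-2.50). The T cell chemokine Cxcl9 stood at 92.8 and 51.5 CPM (-0.85). Bst2, which tethers viruses, was nearly level at 671 and 629 CPM.

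Promoters of 3 of the genes with the largest differences are shown because each holds the letters of the interferon response element. They were taken from RefSeq's table on GRCm38.p6, as the 170 bases before the start, 5′ to 3′ on the gene's strand, with matches to GAAANNGAAA on either strand in capitals, where overlapping matches run together.
Isg15 chr4:156200819-156200988, minus strand: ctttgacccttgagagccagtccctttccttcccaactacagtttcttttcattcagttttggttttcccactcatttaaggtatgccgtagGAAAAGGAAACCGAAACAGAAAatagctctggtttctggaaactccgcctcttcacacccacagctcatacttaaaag
Ifit1 chr19:34640719-34640888, plus strand: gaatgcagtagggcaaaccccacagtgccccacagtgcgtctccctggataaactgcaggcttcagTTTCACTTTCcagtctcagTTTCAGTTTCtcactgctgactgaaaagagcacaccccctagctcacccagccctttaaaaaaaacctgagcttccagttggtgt
Ifit3 chr19:34583359-34583528, plus strand: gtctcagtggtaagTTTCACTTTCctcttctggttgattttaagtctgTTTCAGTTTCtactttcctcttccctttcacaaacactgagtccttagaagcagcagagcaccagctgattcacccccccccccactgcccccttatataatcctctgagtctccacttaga

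Isg15 held 3 overlapping matches on the printed strand, beginning 78, 72 and 66 bases before the start. Ifit1 held 2 on the opposite strand, 104 and 85 bases before the start, and Ifit3 held 2, 156 and 122 bases before it. Within the 250 bases before the start, 7 of the 11 listed interferon genes found in the table had a match, which were Bst2, Cxcl10, Gbp2, Ifit1, Ifit3, Igtp and Isg15. The 11 genes had 12 promoters, of which 58.3% had a match, and the share over all 32851 promoters was 2.98%. The same search covered the 10 largest falls among genes at least as high in the class as outside the endothelial gate. Of these 10, Gbp3, H2-T23, Ifit1, Ifit3 and Isg15 had a match. Ifi44, Ifit2, Ocel1, Oasl2 and Herc6 had none. A match describes the letters and not binding, and Bst2, Cxcl10, Gbp2 and Igtp had one without a 2-fold difference.

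The lower interferon levels were spread over many cells. After thinning to 1000 UMIs, Irf7 was seen in 20.5% of 953 WT capillary cells (17.9 to 23.2) and in 4.42% of 1176 EC-iCD45KO cells (3.32 to 5.76). Thinning left out 81 and 113 shallower cells, and the rest had median depths of 2582 and 2862.5 UMIs before it. Unthinned shares were 46.1% and 15.0%. Among 2000 non-endothelial cells of each library with at least 1000 UMIs, of median depth 1923 and 2228, thinned shares were 6.30% and 4.40%. The EC-iCD45KO capillary share was close to that of these cells and the WT share above it. These cells carry Irf7 RNA too, and no share from free RNA alone was measured. Isg15 was seen in 32.4% and 14.1% of thinned cells (55.7% and 32.1% unthinned). Cells with at least 6 genes of the list made up 34.2% of the class in WT and 17.0% in EC-iCD45KO after thinning (78.9% and 63.4% before it), against 20.1% and 13.97% of arterial, 22.4% and 10.97% of venous and 4.15% and 2.40% of non-endothelial cells.

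**Figure D3:**
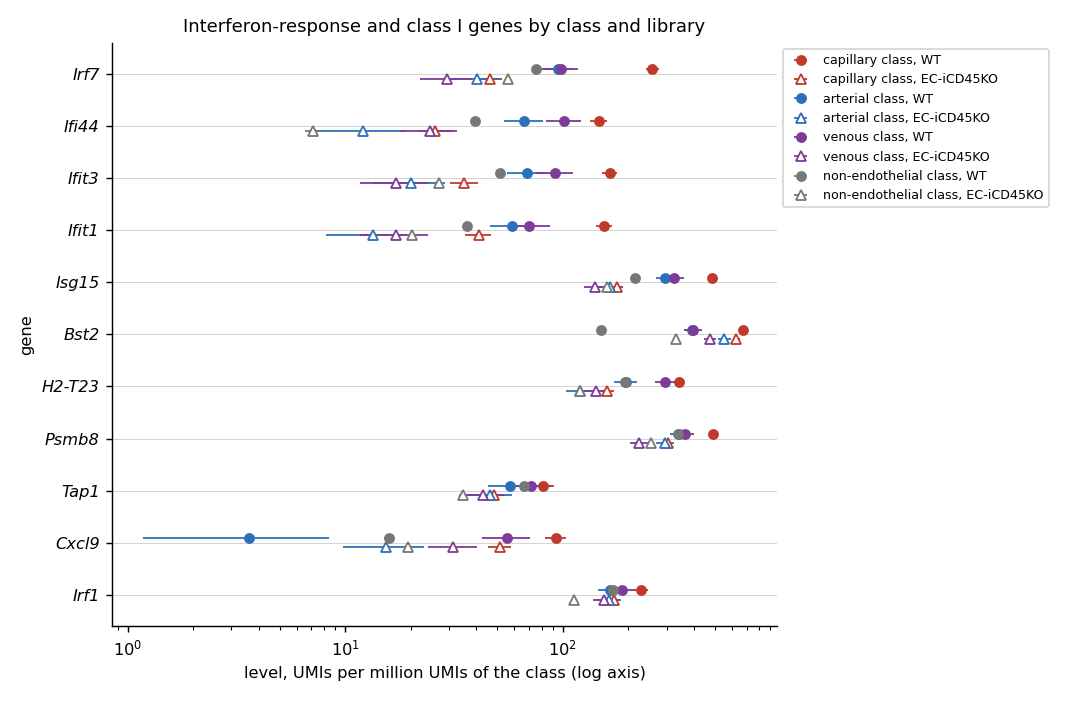
Levels (CPM, log axis) of interferon and MHC class I genes in capillary, arterial, venous and non-endothelial cells of the WT (circles) and EC-iCD45KO (triangles) libraries, with exact 95% Poisson intervals. Irf7 is at 258 in WT and 46.4 in EC-iCD45KO capillary cells, and its EC-iCD45KO level is below its WT level in each of the 4 cell groups.

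Genes of antigen presentation through MHC class I, which interferon induces, were lower as well. All 10 listed genes had intervals below 0, against 1207 of all 6978 genes, with a median of -0.45, and -0.52 in the leukocyte-marker-free cells. In the 74 WT and 167 EC-iCD45KO cells with at most 1 UMI of markers of 6 other cell types it was -0.19. There the intervals of the middle genes ran from -0.86 to 0.55. The median of the same list was -0.22 in arterial, -0.49 in venous and -0.50 in non-endothelial cells. H2-T23, a non-classical class I molecule, had 344 and 160 CPM (-1.10, and -0.72 in those 74 and 167 cells). The immunoproteasome subunit Psmb8 had 492 and 304 CPM (-0.70), the peptide transporter Tap1 80.8 and 48.2, and H2-K1 2385 and 1735 (-0.46). B2m, the shared light chain, was at 2507 and 2381 CPM (-0.07). The MHC class II list had a median of -0.10 in the class and 0.78 in the leukocyte-marker-free cells, so its direction depended on which cells were used. Cd74, the class II chaperone, had 4124 and 2820.1 CPM in the class and 9963 and 11139 in non-endothelial cells.

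Several genes of sprouting and tip cells had higher levels in the EC-iCD45KO capillary cells. Of 13 listed genes 9 were tested, the median was 0.52, 8 intervals lay above 0, and 2 genes, Pgf and Nid2, were 2-fold higher. Among all 6978 genes, 1372 intervals lay above 0 and 1.07% of genes were 2-fold higher. Pgf and Nid2 passed the minimum through their EC-iCD45KO level alone, so the counts and the median that include them are descriptions. Of the other 7 tested genes, 6 had intervals above 0. The same list had a median of 1.34 in arterial, -0.034 in venous and 0.20 in non-endothelial cells. Pgf, placental growth factor, had 7.32 and 33.1 CPM (2.18, 1.57 to 2.85), from 12 and 50 cells, and Nid2, a basement membrane protein, 14.9 and 43.9 CPM (1.56, 1.11 to 2.03), from 32 and 119 cells. Plvap, the protein of fenestral diaphragms, had 348 and 497 CPM (0.52), Cd34 177 and 266 and the Notch ligand Dll4 56.8 and 75.2. Cxcr4, a chemokine receptor that leukocytes also carry, was the exception at -0.72. Below the 20 CPM minimum, the peptide Apln had 2.63 and 18.3 CPM, from 6 and 34 cells (2.80, and 1.39 with means of single cells), and the proteoglycan Esm1 5.27 and 24.5, from 8 and 44 cells. Thinned shares were 0.210% and 0.680% for Apln, 0.210% and 1.79% for Esm1 and 0.525% and 1.70% for Pgf, so these differences rested on few cells. Arterial cells had Pgf at 5.05 and 72.9 CPM and Apln at 1 UMI and 25.4 CPM. In the leukocyte-marker-free cells the median of the sprouting list was 0.33, where the intervals of the middle genes ran from -0.10 to 0.79. There 4 of 8 intervals lay above 0, beside 658 of 6837 over all genes. Among the 4, Nid2 (13.6 and 50.6 CPM) and Esm1 (9.38 and 37.5) passed the minimum through their EC-iCD45KO level alone. That median and count are therefore descriptions. Pgf had no UMI in WT and 33.6 CPM in EC-iCD45KO in these cells.

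Few capillary cells carried cell cycle genes. Of 10 listed genes 3 passed the minimum, of which Mki67 and Top2a passed through their EC-iCD45KO level alone, so the count of 2-fold members is not used. Mki67, a marker of cycling cells, had 7.90 and 41.6 CPM (2.40, 1.82 to 3.03), from 17 and 41 cells, and Top2a, a topoisomerase of dividing cells, 14.3 and 41.6 CPM (1.54, 1.08 to 2.02), from 29 and 54 cells. With means of single-cell CPM the ratio was 1.45 for Mki67 and 0.91 for Top2a, which ends the 2-fold call of Top2a. In the leukocyte-marker-free cells the ratios were 4.63 and 2.32, but they rested on few WT UMIs. Mki67 had 1 UMI there in WT and 73 in EC-iCD45KO, and Top2a had 6 and 88. The intervals of both ratios included the whole-class values of 2.40 and 1.54. The same list had a median of 1.78 in arterial, -0.25 in venous and -0.36 in non-endothelial cells. Pcna, the polymerase clamp, was nearly level at 71.1 and 76.9 CPM. At 1000 UMIs, 0.420% of WT cells (4 cells) and 2.21% of EC-iCD45KO cells (26 cells) had at least 2 of the genes, against 2.50% and 1.85% of non-endothelial cells. Unthinned, the class shares were 4.93% and 7.99%. The WT capillary share was thus below that of non-endothelial cells.

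Contractile genes, which mark smooth muscle and are read as signs of endothelial-to-mesenchymal transition, were higher in EC-iCD45KO. All 6 tested genes of 7 had intervals above 0, 4 were 2-fold higher, and the median was 1.17. The shares over all genes were 1372 of 6978 intervals above 0 and 1.07% of genes 2-fold higher. Cnn1 passed the minimum through its EC-iCD45KO level alone, so the counts and the median that include it are descriptions. The other 5 tested genes had intervals above 0, with 3 of them 2-fold higher, and their middle ratio was that of Acta2, 1.03. Acta2, smooth muscle actin, had 379 and 774 CPM (1.03, 0.94 to 1.12), Tagln 308 and 615 (0.99), the myosin heavy chain Myh11 48.0 and 120 (1.32), Cnn1 17.0 and 59.7 (1.82), Tpm2 55.0 and 151 (1.46) and Myl9 127 and 214 (0.75). The same list had a median of 1.24 in arterial cells, 0.52 in venous cells and 1.21 in non-endothelial cells, the last with Acta2 at 977 and 2238 CPM. A list of smooth muscle markers summed to 779 and 1631 CPM in the class and to 2012 and 4639 outside the endothelial gate, and the part of that RNA in the capillary values was not tested. In the capillary cells without leukocyte markers the contractile median was 1.21. Without the 2 cells of each library with most Acta2, which held 27.4% of its WT and 15.7% of its EC-iCD45KO UMIs, the Acta2 ratio was 1.25 (1.14 to 1.35). It was under 2-fold at 0.65 with at least 3 capillary genes, 0.89 without leukocyte markers, 0.81 with means of single cells and 0.96 after doublet removal. The mesenchymal filament Vim had 1458 and 2794 CPM (0.94) in the class and 1634 and 3234 outside it. Matrix genes had a median of 0.36 and the transition factors of the Snail, Twist and Zeb families 0.31, of which Zeb1 (240 and 283 CPM) and Zeb2 (150 and 196) were tested, while Snai1, Snai2 and Twist1 stayed under the minimum. The matrix median was 0.84 in the capillary cells without leukocyte markers, -0.57 in arterial, -0.28 in venous and 0.58 in non-endothelial cells. For the factors it was 0.45, 0.50, 0.63 and 0.082 in the same order.

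RNA of other cell types was present in the class and differed between the libraries. Summed macrophage markers were 3567 CPM in WT and 5183 in EC-iCD45KO (6914 and 17126 outside the gate), B cell markers 759 and 60.1 (1961 and 160), plasma cell markers 3642 and 160 (24037 and 1665), T and NK cell markers 240 and 41.6 (620 and 150) and fibroblast markers 1068 and 1350 (3243 and 3242). In each of these 5 lists the class sum was below the sum outside the gate. Neutrophil markers summed to 91.9 and 246 CPM (237 and 702 outside). Adipocyte markers went the other way, at 26.9 and 60.5 CPM in the class against 21.8 and 50.2 outside it, with Adipoq at 2 and 9 UMIs and Plin1 at 2 and 12. Mesothelial markers summed to 0.293 and 0.193 CPM and cardiomyocyte markers to 1.17 and 1.54, with Msln, Upk3b, Wt1, Myh6 and Actc1 at 0. At a mean of at least 50 CPM, the 10 genes lowest in EC-iCD45KO relative to WT were Ighg2c, Ighg2b, Jchain, Igkc, Igha, Ighm, Cd79a, Iglc2, Ibsp and Ms4a1, of which all but Ibsp, a bone matrix protein, are B cell or plasma cell genes. Igkc had 2816 and 115 CPM. Immunoglobulin genes share near-identical sequence, so their separate values are uncertain.

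The 10 genes highest in EC-iCD45KO relative to WT were Chil1, Gdpd3, Cxcl14, Saa3, Cwc22, Ccl7, S100a8, Mmp3, Vwa1 and Tpm2. Chil1, a secreted lectin, had 2 UMIs in WT and 390 CPM in EC-iCD45KO, where 83.0% of its UMIs lay in 2 cells, and Cxcl14 had 13.5 and 130 CPM with 55.0% in 2 cells (3.27, and 2.56 without the 2 cells of each library with most of it). Gdpd3, a lysophospholipase D, had 14.9 and 305 CPM (4.35, 3.95 to 4.78), and was also higher in arterial (2.89 and 50.9), venous (10.4 and 72.4) and non-endothelial cells (6.61 and 99.5). Its gene overlaps Gm9967, and Cwc22, a splicing factor with 26.3 and 154 CPM, overlaps Gm13727, so both values are uncertain where strand is not stated. Among genes at least as high in the class as outside the endothelial gate in both libraries, the 10 highest in EC-iCD45KO relative to WT were Gdpd3, Cwc22, Vwa1, Lamb1, Mcam, Col18a1, Tpm4, Serpinh1, Hspa1b and Fam167b. Vwa1, a matrix protein, had 47.4 and 132 CPM (1.48), the laminin chain Lamb1 33.1 and 81.3, and Mcam, an adhesion molecule, 39.5 and 97.1. Col18a1, the source of endostatin, had 59.4 and 135 CPM (1.18, and 0.62 with means of single cells). Serpinh1, the collagen chaperone, had 229 and 475 CPM (1.06) and Tpm4, a non-muscle tropomyosin, 205 and 433 (1.08). Ratios in the leukocyte-marker-free cells were 1.31 for Vwa1, 1.41 for Lamb1, 1.10 for Col18a1, 0.71 for Mcam, 0.91 for Serpinh1 and 0.78 for Tpm4. The lowest under the same condition included Ifi44, Ifit3, Ifit1, Isg15 and other interferon genes such as Oasl2 (80.8 and 39.3) and Herc6 (171 and 85.4), and Ocel1 with 110 and 24.1 CPM (-2.20). Of these, Ifi44, Ifit3, Ifit1, Oasl2 and Ocel1 met that mean through their WT level alone.

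Capillary cells made up 63.7% of the 3 endothelial classes in WT and 67.1% in EC-iCD45KO, a difference of 3.43 percentage points (0.290 to 6.57). The interval spanned 0 with at least 3 capillary genes (1.17, -2.36 to 4.70) and with the stricter cell filter (3.04, -0.22 to 6.30). After thinning to 1000 UMIs they were 68.5% and 76.5% (8.01 points), and at 2000 UMIs 62.9% and 66.9% (3.98 points, -0.530 to 8.49). Thinning left out 190 and 270 endothelial cells at 1000 UMIs and 990 and 1094 at 2000. Of all cells kept the class was 2.62% and 4.45%. Arterial cells were 20.3% and 12.2% of the 3 classes. The bead selection and the makeup of each preparation can set these shares. In cells without leukocyte markers the difference was -1.20 points (-5.70 to 3.49).

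**Figure D4:**
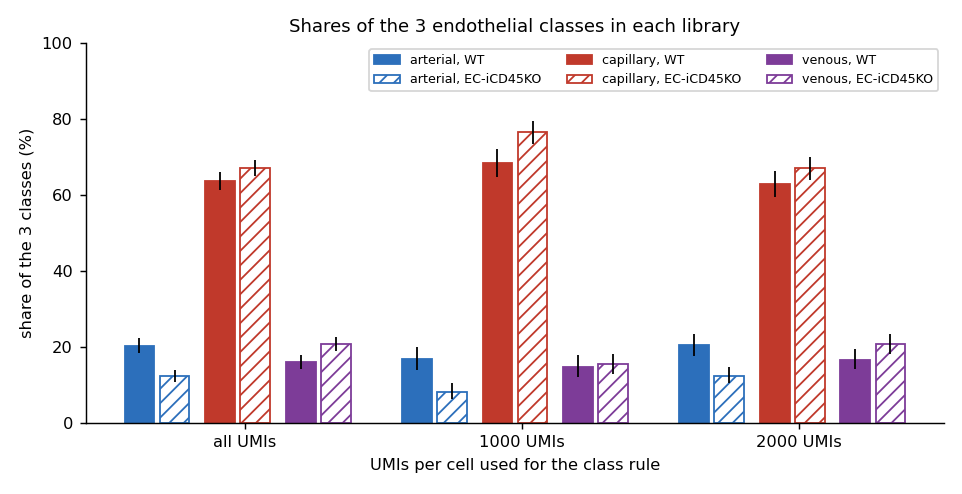
Capillary, arterial and venous cells as a percent of the 3 endothelial classes in the WT (filled bars) and EC-iCD45KO (hatched bars) libraries, with exact 95% binomial intervals, at all UMIs and after thinning to 1000 and 2000 UMIs per cell. The capillary share is 63.7% in WT and 67.1% in EC-iCD45KO with all UMIs, and the arterial share 20.3% and 12.2%.

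Within the class, cells were also divided by Rbp7, a retinol-binding protein, and Gpihbp1, as seen at 1000 UMIs. Rbp7 without Gpihbp1 was found in 119 WT and 138 EC-iCD45KO cells (12.5% and 11.7%) and Gpihbp1 without Rbp7 in 396 and 495 (41.6% and 42.1%). Both were seen in 201 and 242 cells and neither in 237 and 301. Because these genes chose the division, differences between the sides describe it. Of 6982 genes tested, 80 were at least 2-fold higher on the Rbp7 side in both libraries (1.15%) and 87 on the Gpihbp1 side (1.25%). Median depths were 2710 and 2433 UMIs on the Rbp7 side and 2544.5 and 2692 on the Gpihbp1 side.

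Most listed arterial genes were higher in cells with Rbp7 alone. Of 14 tested arterial genes outside the choice, 12 were higher on the Rbp7 side in both libraries, 5 of them 2-fold, with medians of 1.02 and 0.83 beside -0.01 and -0.04 over all genes, of which 1909 of 6982 were higher on that side in both libraries. Cxcl12, a chemokine, was lower there in both. Sema3g, a guidance factor, had 237 CPM in WT and 188 in EC-iCD45KO on the Rbp7 side and 65.0 and 57.9 on the Gpihbp1 side. Hey1, a Notch target, had 107 and 122 against 31.8 and 37.3, the elastic fibre protein Fbln5 484 and 339 against 129 and 90.5, Vegfc 80.7 and 90.6 against 25.9 and 14.4, and Stmn2, a microtubule regulator, 362 and 371 against 79.1 and 72.8. All 5 were higher on the Rbp7 side in both libraries. The Gpihbp1 side held the higher level of 9 of 11 other capillary genes, with medians of -0.85 and -0.99, and of 11 of 15 lipid genes, with medians of -0.42 and -0.50, beside 2227 of all 6982 genes. Lpl had 849 and 504 CPM there against 239 and 179 on the Rbp7 side, the water channel Aqp1 982 and 988 against 193 and 274, Scarb1 324 and 360 against 141 and 135, and Fabp4 21738 and 19616 against 13902 and 12374. The apelin receptor Aplnr had 98.3 and 150 CPM against 2.60, a single UMI, and 37.9. The Lpl level was thus lower in EC-iCD45KO than in WT on both sides. On the Rbp7 side this rested on 92 WT and 85 EC-iCD45KO UMIs, and no interval was computed for either difference. Venous genes showed no such tilt, with 4 of 10 higher on each side in both libraries.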

How the data were processed

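The deposited matrices hold whole-number UMI counts per gene and cell barcode, 1 matrix per library, made by the authors with Cell Ranger 7.1.0 on mm10, per the submitters' processing notes. Strand and intron counting and ambient RNA removal are not given in the sources used here. Every deposited barcode had at least 500 UMIs. Kept cells had 300 genes or more and a mitochondrial share of 10% or less, which left 39503 of 39849 in WT and 28960 of 30278 in EC-iCD45KO. Scrublet (scanpy 1.11.5) marked 5 and 0 cells with its own threshold and so had not worked. No doublets were removed, and removal of the 10% with the highest scores was an alternative.

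Counts were summed per class and library and scaled to CPM. Log2 ratios carry exact conditional binomial intervals, levels Poisson and shares Clopper-Pearson intervals, and differences of shares Newcombe intervals. A gene was tested for a 2-fold difference at a mean of at least 20 CPM over the 2 capillary levels. Beside the list members, named genes were the 10 genes highest and the 10 lowest in EC-iCD45KO relative to WT at a mean of at least 50 CPM, over all genes and over genes at least as high in the class as outside the endothelial gate, the 15 highest and 10 lowest against both other classes, and the 10 most different in each direction between Rbp7-only and Gpihbp1-only cells. The class, the members and the lists were chosen with earlier results of these data known. The alternatives were stricter cells, doublet removal, at least 3 class genes, at most 1 UMI of markers of 6 other cell types (smooth muscle, fibroblast, macrophage, B, plasma, and T or NK cells), TMM (edgeR 4.0.16, R 4.3.3), means of single cells, no minimum with 0.5 CPM added, and thinning. Gene positions are from GENCODE on GRCm38. The statistics were tested on simulated data. Python 3.11.15, numpy 2.4.6, scipy 1.17.1 and pandas 2.3.3 were used.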

Additional observations from a re-analysis of the deposited data

How the results depend on the processing

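The 39 results were recomputed under 360 alternatives in all. The value stayed within its counting interval (a count of genes within 1.5 times) in 278, moved further in 72 and changed direction in 10. The changes of direction came from 2 choices of cells. One kept cells with at most 1 UMI of markers of 6 other cell types (74 WT and 167 EC-iCD45KO cells), and the other, added after the data were seen, kept cells with no leukocyte marker (384 and 822). With them the Ptprc ratio of -1.48 became 0.0018 and 0.090, the capillary share difference of 3.43 became -1.26 and -1.20, and Mgll became -0.17 and -0.082. With at most 1 such UMI the WT lipid median over arterial cells was -0.42, where 6 and 4 arterial cells were left, Nid2 was -0.086 and Prnd -1.50. Without leukocyte markers the regulator median was -0.078.

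The same 2 choices gave lipid medians of -0.20 and -0.14, interferon medians of -0.34 and -0.66, sprouting medians of 0.33 and 0.33, 553 and 119 genes 2-fold higher against 75, and 468 and 93 lower against 151. With at most 1 such UMI the contractile median was 2.41 (-0.29 to 7.80). This choice itself limits the UMIs of Acta2, Myh11, Cnn1, Tagln and Des, so that median cannot describe a contractile difference. The EC-iCD45KO lipid median over arterial cells was 0.33 with at most 1 such UMI, and without leukocyte markers the WT one was 2.19. At least 3 class genes gave an interferon median of -0.40 and a contractile median of 0.81. Ptprc was -1.65 after doublet removal and -1.27 with means of single cells, which gave 0.97 for the contractile list and 2.13 for lipid over arterial in WT. Without a minimum, 962 genes were 2-fold higher and 1189 lower, and the lipid medians over arterial cells were 1.32 and 0.94. Thinning to 1000 UMIs gave a share difference of 8.01, and 124 genes 2-fold higher on the Rbp7 side when thinned counts replaced all UMIs.

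No paired analysis was possible because there is a single library of each kind. Depth limits Apln, Esm1, Prnd and the cell cycle genes, seen in few cells.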
